A study of Homo sapiens with 13 samples.

Results

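The comparison described here is that of chloroquine added to 5-fluorouracil (5-FU): 3 libraries of cells given both drugs (the combination) against 3 libraries of cells given 5-FU alone, 6 of the 13 libraries of the series. The cells are TE11, a human line labelled as esophageal squamous cell carcinoma, and all of them were treated for 48 h. The 5-FU group received 25 µM 5-FU, and the combination received the same dose together with 10 µM chloroquine. The other libraries, used as the reference for chloroquine without 5-FU, came from cells in 0.1% DMSO (vehicle, n = 4) and from cells given 10 µM chloroquine (n = 3). All 60591 genes of the deposited count table were considered, of which 19514 passed the filter on low counts and were tested. The title of the series places p53 signalling between chloroquine and a stronger effect of 5-FU, and the comparison asks what chloroquine changed in cells that were already exposed to 5-FU. TE11 is 1 established line, and nothing in the labels says that replicates were separate cultures, which means that p-values reflect only how far these libraries spread, possibly for technical reasons.

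Chloroquine is a weak base that is trapped in lysosomes, the acidic compartments that digest material delivered by endocytosis and autophagy, and it raises their pH. Lysosomes release cholesterol from lipoproteins and iron from transferrin, which links them to the sterol-sensing SREBP factors and to the iron-sensing control of mRNAs, and their own genes carry a short promoter element read by the factor TFEB and its relatives. 5-FU is a pyrimidine analogue that blocks thymidylate synthase and enters RNA and DNA, and it is known to activate p53 through damage and through faulty ribosome assembly.

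Totals were between 19507898 and 23679833 counts in the 6 libraries. Replicate 2 of both groups held transcripts of other tissues: the collagen gene COL1A2 had 159 counts in 5-FU 2 and 153 in combination 2, against 1 to 5 in the other 4 libraries. The 2 libraries were not alike, since markers of salivary and pancreatic acinar cells summed to 55.8 CPM (counts scaled to a common library size with the TMM method) in 5-FU 2 and to 4.36 CPM in combination 2, and to between 1.90 and 4.11 CPM in the other 4. Counts of changed genes are therefore also given without replicate 2 of both groups. Such transcripts were also present in vehicle 4 and in chloroquine 1 and 2, with 741, 607 and 450 counts of COL1A2 against at most 7 in the other vehicle and chloroquine libraries. These 3 libraries bear on every value given for chloroquine alone and on every interaction, so both were also computed without all 5 libraries, an alternative added after the data were seen in which the lone chloroquine library is assumed to vary like the other groups. The labelled cell type was only partly seen in the markers: KRT5 and IVL had 0 counts in all 6 libraries and KRT14 and TP63 had at most 4, whereas the squamous lineage factor SOX2 had 192 to 273 counts and the simple-epithelium keratin KRT18 had 1093 to 1361. Mitochondrial transcripts took 2.81%, 3.53% and 3.35% of counts with 5-FU and 2.85%, 2.81% and 2.61% in the combination.

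Adding chloroquine to 5-FU changed 7517 genes at an edgeR adjusted p under 0.05: 3937 rose, 20.2% of the genes tested, and 3580 fell, 18.3%. Most changes were small. Of the genes that rose, 199 reached a log2 fold change of 1, and of those that fell, 771 reached -1, while the median over all genes tested was 0.02. In 9097 genes, 46.6% of those tested, the CPM of the 3 combination libraries did not overlap those of the 3 libraries with 5-FU, and 7093 of these were among the genes called. Without replicate 2 of both groups 3619 genes rose and 3254 fell. Fitting the 6 libraries alone gave 2843 rises and 3289 falls. These are levels relative to the whole library, so fewer cells that express a gene and less of its RNA per cell cannot be told apart. Among the genes named below as having risen or fallen, the libraries of the 2 groups overlapped in SQSTM1. They also overlapped in MYC, HLA-C and CYC1, called genes that are named below only for how their values depend on the processing. The shares of 20.2% and 18.3% are the background against which the counts of each gene list are read.

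The genes with the largest changes had varied functions. SELENOW encodes a small selenoprotein. It stood at 94.8, 77.8 and 83.6 CPM in 5-FU replicates 1 to 3 and at 22.7, 24.3 and 25.9 CPM in the combination, so no library came near the other group, and it fell by 1.81 ± 0.0845 (SE) on the log2 scale (edgeR adjusted p = 7.34e-09). Chloroquine alone lowered it by the same margin (log2 -1.79, interaction adjusted p = 0.898). GEM, a small GTPase of the RAD family, rose from 4.12, 4.46 and 5.14 CPM to 12.2, 11.8 and 10.97 CPM (log2 1.35 ± 0.109, adjusted p = 7.44e-07). BMP2, a secreted growth factor, rose by 1.36 ± 0.1505, and LAMB3, a laminin chain of the epithelial basement membrane, by 1.82 ± 0.241 on the log2 scale. These 3 also rose with chloroquine alone, by 2.07, 1.78 and 1.86.

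Other large rises went to METTL7A, KCNAB1, CA14 and SFT2D2. SFT2D2 belongs to a family of vesicle transport proteins, and its 5-FU libraries stood at 22.5, 22.1 and 22.5 CPM against 52.1, 57.6 and 59.8 CPM in the combination. With chloroquine alone SFT2D2 stood at log2 0.043 (adjusted p = 0.82), and the difference between the 2 responses passed the test (interaction log2 1.29, adjusted p = 0.000101). NTRK2, which encodes the neurotrophin receptor TrkB, was at 1.02, 1.43 and 1.51 CPM with 5-FU and 3.55, 4.04 and 2.53 CPM in the combination (log2 1.34 ± 0.268). The 7SL RNA gene RN7SL1, the RNA of the signal recognition particle, was called as a rise (log2 1.74 ± 0.541, adjusted p = 0.02), but its libraries spread from 33.7 to 104 CPM with 5-FU and from 108 to 437 CPM in the combination. That call was lost without 5-FU 2 (log2 1.38) and without combination 3 (log2 1.12), and 7SL copies are near identical.

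BAIAP3, which encodes a protein of vesicle exocytosis, led the genes that fell. It stood at 43.2, 28.2 and 32.8 CPM with 5-FU and at 5.97, 5.93 and 7.31 CPM in the combination (log2 -2.44 ± 0.143, adjusted p = 4.28e-08), close to the vehicle mean of 6.04 ± 0.644 CPM. MXRA8 fell from 16.03, 11.8 and 13.2 CPM to 3.25, 2.83 and 3.75 CPM, and the semaphorin receptor gene PLXNB3 from 7.46, 4.69 and 5.46 CPM to 1.04, 1.39 and 1.58 CPM. The protease gene ADAMTS10 (log2 -1.96 ± 0.209), CNIH2 (log2 -1.95 ± 0.187) and VILL (log2 -1.84 ± 0.149) fell by nearly as much. PLXNB3 and some of the other genes with large falls overlap another gene on the same strand, where reads cannot be assigned with certainty, among them EIF4A1 (log2 -2.30 ± 0.126), RTEL1-TNFRSF6B (log2 -1.96 ± 0.181) and JMJD7-PLA2G4B (log2 -1.87 ± 0.162).

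**Figure D1:**
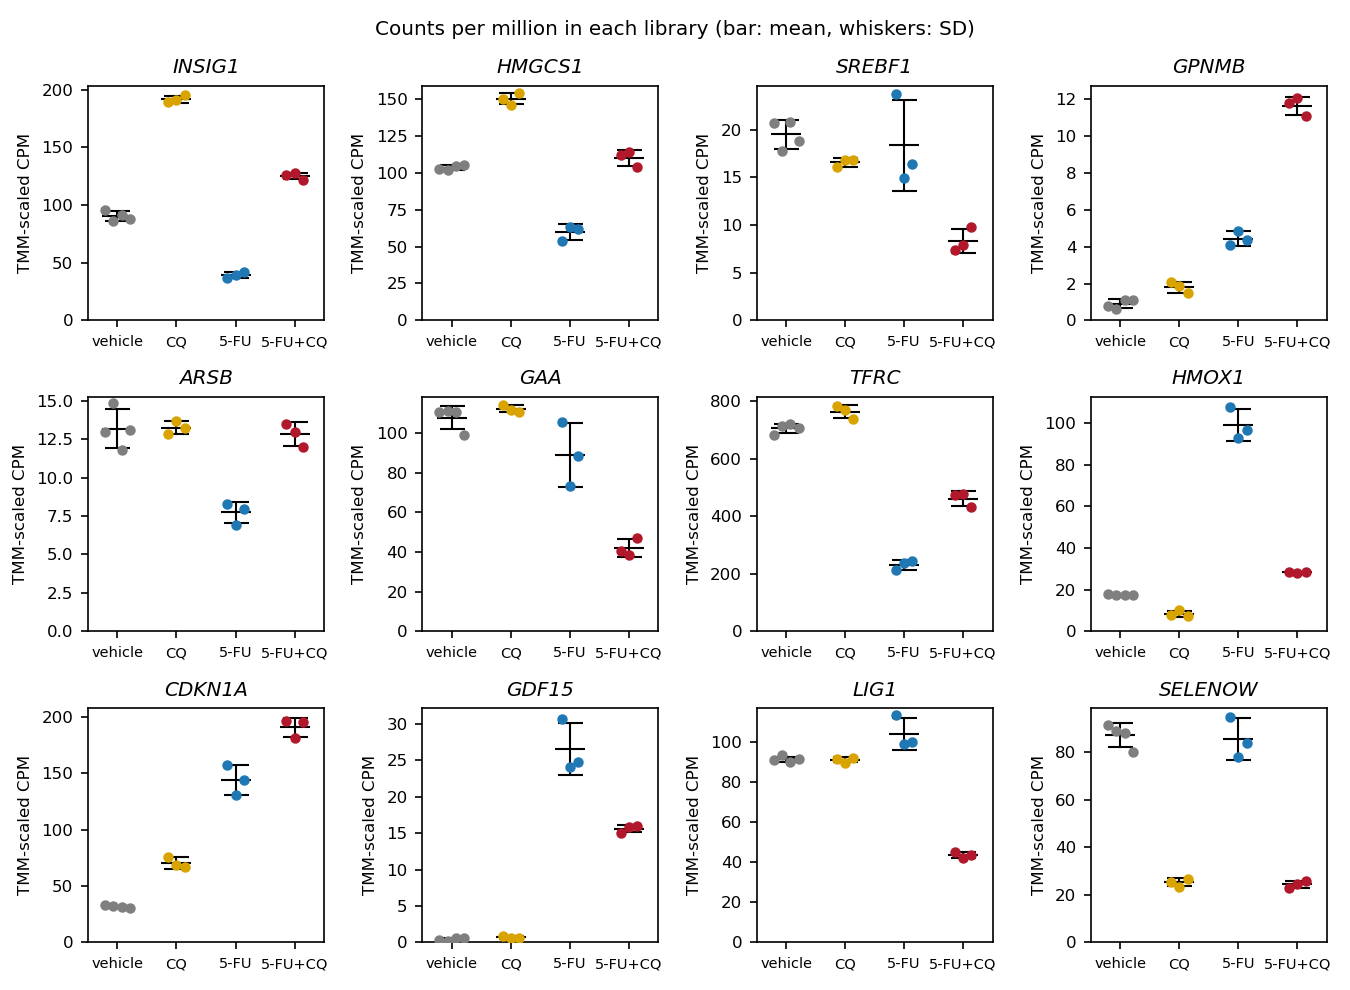
TMM-scaled CPM (vertical axes, starting at 0) of 12 genes in each of the 13 libraries, by group: vehicle, chloroquine (CQ), 5-FU, and both drugs (5-FU+CQ). Points are libraries, the long bar is the mean and the whiskers are 1 SD. In each panel the 3 points of the combination lie apart from the 3 points of 5-FU, above them for INSIG1, HMGCS1, GPNMB, ARSB, TFRC and CDKN1A and below them for SREBF1, GAA, HMOX1, GDF15, LIG1 and SELENOW.

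Genes that rose and genes that fell differed in base composition. Among protein-coding genes matched to GENCODE release 29, the median GC content of the transcripts was 42.9% in the 3307 genes that rose, 56.7% in the 2826 that fell and 49.0% in the 7526 that did not pass. Their introns differed as well, with a median mean intron length of 4659, 1507 and 3139 bases. In the fifth of genes with the lowest GC content 44.5% rose and 4.65% fell, and in the fifth with the highest 4.72% rose and 42.4% fell. The median log2 fold change ran from 0.20 to -0.28 from the lowest to the highest of 5 equal groups by GC content. With chloroquine alone it ran from -0.024 to 0.015. In 5-FU alone against vehicle, a comparison that shares the 5-FU libraries, it ran the other way, from -0.20 to 0.30.

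The libraries with 5-FU also differed from each other in this respect. The correlation across genes between GC content and a library's deviation from the mean of all 13 was 0.562, 0.0332 and 0.257 in 5-FU replicates 1 to 3 and -0.198, -0.231 and 0.0175 in the combination. In the vehicle libraries it lay between -0.174 and -0.0801. So 5-FU 1 stood farthest from the rest, and 5-FU 2 lay close to combination 3. With a correction for GC content in each library, added after the data were seen, 3944 genes rose and 3892 fell, and 5682 of the 7517 calls remained in the same direction. The medians of the 5 groups then lay between -0.002 and 0.02. Whether the difference in GC content came from the cells or from the preparation of the libraries was not tested. Corrected log2 values are given below for genes whose value moved by more than 1.5 times.

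**Figure D2:**
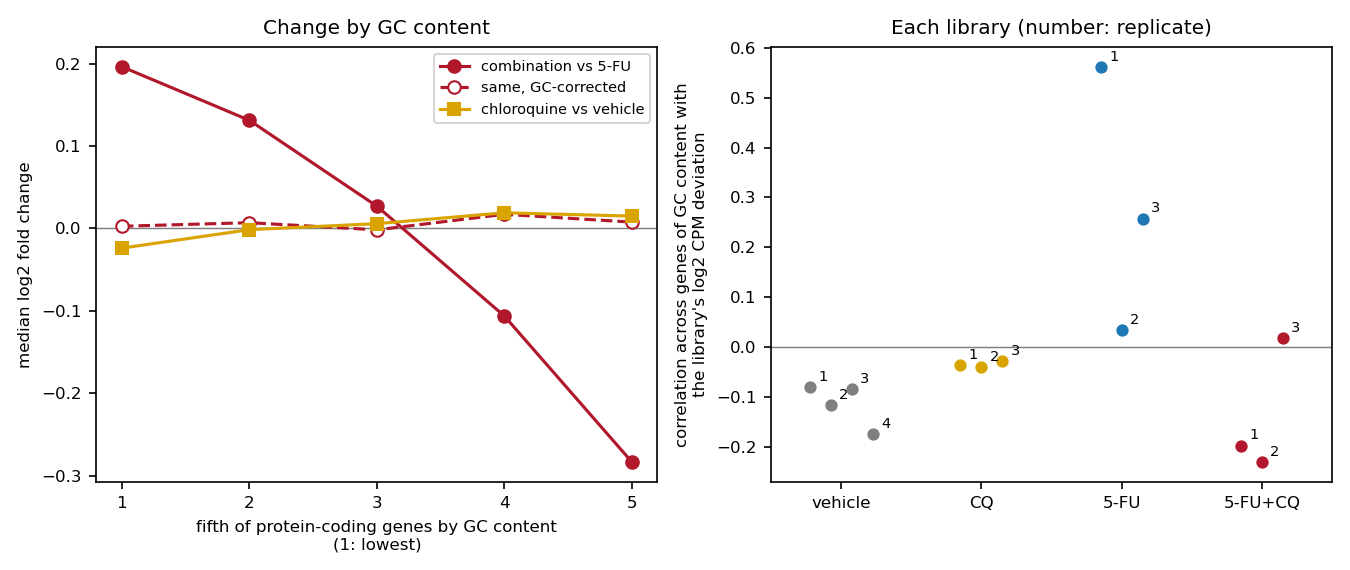
Left: median log2 fold change of protein-coding genes (vertical axis) in 5 equal groups by GC content of the transcript (horizontal axis) for the combination against 5-FU, the same after GC correction, and chloroquine against vehicle. Right: for each library, the correlation across genes of GC content with its log2 CPM deviation. The combination against 5-FU falls from 0.20 to -0.28 across the groups, the other 2 lines stay near 0, and 5-FU 1 stands highest at 0.562.

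Genes of cholesterol synthesis and uptake formed the list with the largest share of rises among those of 10 or more tested genes. Among its 30 tested genes 17 rose (56.7%, against 20.2% of all genes), whereas 4 fell and 9 did not pass the test; the list's median log2 value was 0.29. INSIG1, which holds the SREBP precursors in the endoplasmic reticulum when sterols are plentiful and is itself an SREBP target, stood at 36.5, 38.99 and 41.9 CPM with 5-FU and at 126, 128 and 122 CPM in the combination. It rose 3.197-fold (log2 1.68 ± 0.0601, adjusted p = 1.7e-09), with the 3 combination libraries close together and far above the others. MSMO1, a C4-methylsterol oxidase of the pathway, rose from 33.99, 45.4 and 41.8 CPM to 91.1, 95.7 and 86.7 CPM (log2 1.17 ± 0.0886, adjusted p = 4.24e-07). HMGCS1, which makes HMG-CoA for the pathway's first committed steps, rose from 53.7, 63.5 and 62.1 CPM to 112, 114 and 104 CPM (log2 0.88 ± 0.0632, adjusted p = 2.75e-07). All 3 had lower levels with 5-FU than with vehicle, where their means were 90.4 ± 4.48, 59.8 ± 3.44 and 103 ± 1.696 CPM.

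Chloroquine alone raised the same 3 genes, INSIG1 by 1.08, MSMO1 by 0.41 and HMGCS1 by 0.53 on the log2 scale, and 12 members of the list in all, with 3 falls. The rise was larger when 5-FU was present for INSIG1 (interaction log2 0.59, adjusted p = 6.01e-05), MSMO1 (0.77, 0.000201) and HMGCS1 (0.34, 0.00545). These interactions are given without GC correction, after which the rises with 5-FU present were 1.60, 0.98 and 0.71. Without the 5 libraries that hold transcripts of other tissues the interaction of HMGCS1 no longer passed (0.32, adjusted p = 0.0614). The members that fell were led by SREBF1, the gene of the SREBP that serves fatty acid synthesis most, which went from 23.8, 14.9 and 16.4 CPM to 7.401, 7.91 and 9.79 CPM (log2 -1.13 ± 0.151, adjusted p = 5.45e-05). The sterol reductase gene TM7SF2 fell too (log2 -0.87 ± 0.0957, -0.54 after GC correction). After GC correction 23 members rose and 3 fell.

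Fatty acid and phospholipid genes were mixed: of 21 tested, 7 rose, 4 fell and 10 did not pass. CHKA, the choline kinase that starts phosphatidylcholine synthesis, rose from 50.3, 48.05 and 45.5 CPM to 78.2, 76.9 and 75.2 CPM (log2 0.68 ± 0.0525). The fatty acid elongase gene ELOVL5 rose as well (log2 0.41 ± 0.07300, 0.26 after GC correction), and the fatty acid synthase gene FASN fell (log2 -0.58 ± 0.115, -0.21 after GC correction). Of 9 cholesterol efflux genes and targets of the sterol receptor LXR, 1 rose and 3 fell. APOE, a lipid carrier, fell from 37.9, 23.96 and 26.6 CPM to 12.4, 12.8 and 15.8 CPM (log2 -1.11 ± 0.155, -0.69 after GC correction, adjusted p = 7.69e-05). APOE had a vehicle mean of 2.73 ± 0.179 CPM and rose with chloroquine alone (log2 0.68), so its 2 responses went opposite ways (interaction log2 -1.79, adjusted p = 0.000108). The cholesterol transporter gene ABCG1 fell (log2 -1.21 ± 0.275), and SMPDL3A, an LXR target that encodes a phosphodiesterase, rose (log2 0.54 ± 0.08002).

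Lysosomal genes did not move as a block. Of 50 tested lysosomal hydrolases 8 rose, 15 fell and 27 did not pass (median log2 -0.10), and of 47 genes of the lysosomal membrane and of lysosome formation 18 rose, 12 fell and 17 did not pass (median 0.13). After GC correction the hydrolase counts were 13 and 15. Among hydrolases, ARSB, which removes sulfate from dermatan sulfate, rose from 8.28, 6.94 and 7.97 CPM to 13.5, 12.9 and 11.96 CPM (log2 0.73 ± 0.0931, adjusted p = 3.78e-05), a level close to the vehicle mean of 13.2 ± 1.26 CPM. CTSL, the protease cathepsin L, rose by 0.61 ± 0.0584. ARSA, the arylsulfatase of sulfatide breakdown, fell from 38.7, 27.2 and 33.1 CPM to 12.8, 11.8 and 15.98 CPM (log2 -1.29 ± 0.134, adjusted p = 6.5e-06), and GAA, the acid glucosidase that digests glycogen, from 105, 73.3 and 88.5 CPM to 40.7, 38.3 and 47.2 CPM (log2 -1.08 ± 0.109). None of these 4 genes rose with chloroquine alone: ARSB, ARSA and GAA stood at 0.011, 0.22 and 0.059 without passing, and CTSL fell (log2 -0.19; -0.15 and not passing without the 5 libraries).

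On the membrane side GPNMB, a glycoprotein known to mark stressed lysosomes, had the largest rise. Its 5-FU libraries stood at 4.12, 4.87 and 4.35 CPM and its combination libraries at 11.8, 12.1 and 11.1 CPM (log2 1.39 ± 0.149, adjusted p = 8.23e-06), and the vehicle mean was 0.912 ± 0.254 CPM. FNIP2, a partner of folliculin in nutrient sensing at the lysosome, rose from 29.5, 30.2 and 28.4 CPM to 54.5, 55.7 and 53.9 CPM (log2 0.90 ± 0.0666). RRAGC, a Rag GTPase that brings mTORC1 to the lysosome and was chosen here after its values were seen because of its promoter element, rose by 0.59 ± 0.0832. MCOLN1, the lysosomal calcium channel, fell from 38.5, 29.5 and 34.97 CPM to 18.4, 18.2 and 19.9 CPM (log2 -0.86 ± 0.0927), GNPTG, a subunit of the enzyme that tags hydrolases with mannose 6-phosphate, by 0.67 ± 0.0929, and the abundant membrane glycoprotein gene LAMP1 by 0.35 ± 0.0635 on the log2 scale. CTSD, the gene of cathepsin D, overlapped between the groups and did not pass (log2 -0.10 ± 0.1304, adjusted p = 0.604). After GC correction it passed the test at 0.23.

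The promoter element read by TFEB, whose core is TCACGTG, was present in genes of both directions. The windows below lie within 250 bases before the start site of 6 genes and show that element in capitals on either strand, so that CACGTGA is the core on the other strand and TCACGTGA holds both. ARSB, RRAGC and INSIG1 rose, and GAA, MCOLN1 and GNPTG fell. Sequences are from RefSeq, build GRCh38.p14.
ARSB (chr5:78986086-78986144, minus strand): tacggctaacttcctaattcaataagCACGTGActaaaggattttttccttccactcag
RRAGC (chr1:38859852-38859910, minus strand): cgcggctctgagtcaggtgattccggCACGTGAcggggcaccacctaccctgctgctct
GAA (chr17:80101478-80101580, plus strand): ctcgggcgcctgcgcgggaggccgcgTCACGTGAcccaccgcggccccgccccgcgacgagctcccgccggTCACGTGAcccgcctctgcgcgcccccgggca
MCOLN1 (chr19:7522556-7522623, plus strand): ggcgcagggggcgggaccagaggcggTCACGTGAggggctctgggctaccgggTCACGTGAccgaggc
GNPTG (chr16:1351892-1351930, plus strand): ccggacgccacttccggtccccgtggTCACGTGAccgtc
INSIG1 (chr7:155297796-155297855, plus strand): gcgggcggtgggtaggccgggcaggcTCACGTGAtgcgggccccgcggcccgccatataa
The core stood in 3.31% of 35116 RefSeq promoters. Promoters were found for 85 of 117 tested genes of the hydrolase, membrane and V-ATPase lists, under 80%, so no share over the lists is compared. Of the 28 of these genes with the core, 4 rose, 10 fell and 14 did not pass (median log2 -0.11). Of the 57 without it, 19 rose, 13 fell and 25 did not pass (median 0.03). Over all tested genes 20.2% rose and 18.3% fell. The even split of the 6 genes shown does not stand for these 28, and INSIG1 belongs to the cholesterol list. Among the 6 genes shown, GAA and MCOLN1 carried 2 sites in the window and the others 1. A match in these letters is a description and not a bound site.

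The V-ATPase is the proton pump that acidifies lysosomes. Of 20 tested subunit genes 8 rose, 2 fell and 10 did not pass. ATP6V0A2, a membrane subunit of the pump, rose from 45.9, 49.4 and 52.00 CPM to 67.95, 66.8 and 63.7 CPM (log2 0.43 ± 0.0544), and ATP6V1C1 of the cytosolic part rose by 0.34 ± 0.0524 (0.16 after GC correction). ATP6V0A1, an isoform of the same membrane subunit, fell (log2 -0.29 ± 0.0645). ATP6V0D2, a tissue-restricted isoform, fell from 6.15, 6.76 and 5.78 CPM to 2.64, 2.88 and 2.71 CPM (log2 -1.18 ± 0.325, adjusted p = 0.0101), although it stayed far above its vehicle mean of 0.206 ± 0.147 CPM.

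Autophagy genes also moved in both directions, with 14 of 51 tested members up (27.5%), 9 down (17.6%) and 28 not passing, shares near the background. RB1CC1, the scaffold FIP200 of the initiation complex, rose from 112, 151 and 137 CPM to 194, 199.9 and 184 CPM (log2 0.53 ± 0.0871, 0.33 after GC correction), and TMEM41B, a lipid scramblase of autophagosome formation, rose by 0.48 ± 0.0779 (0.31 after GC correction). ATG2A, which carries lipid into the growing autophagosome, fell from 105, 71.6 and 82.6 CPM to 34.5, 31.3 and 36.5 CPM (log2 -1.34 ± 0.109, adjusted p = 7.52e-07). ULK1, the initiating kinase, fell from 138, 102 and 112 CPM to 62.6, 60.7 and 65.7 CPM (log2 -0.90 ± 0.08405, -0.56 after GC correction). Neither ATG8-family gene named passed: MAP1LC3B was at 0.11 ± 0.0692 (adjusted p = 0.214) and GABARAPL1 at 0.11 ± 0.0531 (adjusted p = 0.126) on the log2 scale. SQSTM1, the cargo receptor p62, was at 83.4, 63.3 and 71.4 CPM with 5-FU and 54.9, 50.9 and 64.7 CPM in the combination, with 5-FU 2 below combination 3. It passed as a fall (log2 -0.35 ± 0.0968, -0.16 after GC correction, adjusted p = 0.00981), a call lost without combination 2 (log2 -0.28).

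Iron genes had more rises than falls: 8 of 17 tested genes rose (47.1%), 1 fell and the other 8 did not pass (median log2 0.21). Without replicate 2 of both groups 7 rose and 0 fell. TFRC, the transferrin receptor that brings iron into cells, stood at 213, 237 and 243 CPM with 5-FU and at 476, 476 and 431 CPM in the combination (log2 1.00 ± 0.0555, adjusted p = 3.07e-08), between its 5-FU level and its vehicle mean of 705 ± 16.97 CPM. With chloroquine alone TFRC did not pass (log2 0.11), and the 2 responses differed (interaction log2 0.88, adjusted p = 1.34e-06). SLC40A1, the iron exporter ferroportin, rose as well (log2 0.66 ± 0.143). HMOX1, the heme oxygenase that frees iron from heme, is not counted in that list. It dropped from 107, 92.8 and 96.7 CPM to 28.4, 28.1 and 28.7 CPM (log2 -1.80 ± 0.08102, adjusted p = 5.84e-09), with libraries of each group tightly clustered. It also fell with chloroquine alone (log2 -1.04), from a vehicle mean of 17.5 ± 0.262 CPM.

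The wider list of NRF2 and antioxidant genes had 4 rises and 8 falls among 28 tested, and 5 and 4 without replicate 2 of both groups. TXN, the cytosolic thioredoxin, rose from 205, 226 and 229 CPM to 314, 311 and 348 CPM (log2 0.56 ± 0.0777), and the glutathione reductase gene GSR rose (log2 0.27 ± 0.0612). PIR, an NRF2 target, fell (log2 -0.84 ± 0.138). TXN and GSR had fallen with chloroquine alone (log2 -0.34 and -0.45), and the interaction passed for both (adjusted p = 2.14e-05 and 1.75e-05).

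Among targets of p53 in growth arrest, repair and feedback rises outnumbered falls. Of the 42 genes tested 18 rose (42.9%), 10 fell (23.8%) and 14 did not pass (median log2 0.14). CDKN1A, the cell cycle inhibitor p21, stood at 157, 131 and 144 CPM with 5-FU and at 196, 181 and 196 CPM in the combination (log2 0.41 ± 0.0687, adjusted p = 0.00036), with the 2 groups apart. ZMAT3, an RNA-binding p53 target, rose from 32.6, 33.1 and 34.9 CPM to 57.9, 53.1 and 53.4 CPM (log2 0.71 ± 0.0741), and TIGAR, a regulator of glycolysis, by 0.67 ± 0.114. MDM2, the ubiquitin ligase that degrades p53, rose by 0.29 ± 0.0752, a call lost after GC correction (0.15, adjusted p = 0.0749).

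Other p53 targets fell or did not pass. GDF15, a secreted stress cytokine, dropped from 30.6, 24.1 and 24.8 CPM to 15.1, 15.9 and 15.9 CPM (log2 -0.76 ± 0.123, -0.46 after GC correction, adjusted p = 0.000252), and FDXR, the mitochondrial ferredoxin reductase, from 44.3, 34.2 and 39.4 CPM to 19.4, 21.8 and 24.8 CPM (log2 -0.84 ± 0.122, -0.56 after GC correction). BBC3, which encodes PUMA, was at 0.18 ± 0.112 (adjusted p = 0.216), and it passed at 0.34 without 5-FU 1 and at 0.62 after GC correction. BAX (0.0031 ± 0.105, adjusted p = 0.988) and FAS (-0.0072 ± 0.0983, adjusted p = 0.968) overlapped between the groups. After GC correction they passed in opposite directions, at 0.22 and -0.18. With chloroquine alone 21 of the 42 p53 targets in growth arrest, repair and feedback had risen and 1 had fallen. CDKN1A rose more without 5-FU than with it (log2 1.15 against 0.41, interaction adjusted p = 4.76e-05), from a vehicle mean of 31.7 ± 1.02 CPM.

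In the list of apoptosis machinery 9 of 31 tested genes rose, 2 fell and 20 did not pass, and after GC correction 13 rose and 5 fell. XIAP, an inhibitor of caspases, rose from 81.4, 92.01 and 89.9 CPM to 162, 141 and 161 CPM (log2 0.82 ± 0.0862, adjusted p = 7.24e-06). HRK, a pro-apoptotic BH3-only protein, rose by 0.62 ± 0.113, and the death receptor adaptor gene TRADD fell (log2 -0.60 ± 0.138, -0.24 after GC correction). The rises therefore included genes that restrain death and genes that promote it.

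Genes of G1/S and DNA replication had more falls than rises, with 19 falls (40.4%), 6 rises (12.8%) and 22 not passing among 47 tested (median log2 -0.11, against 0.02 for all genes). LIG1, the ligase that joins Okazaki fragments, stood at 114, 99.3 and 100.3 CPM with 5-FU and at 45.4, 42.1 and 43.6 CPM in the combination (log2 -1.25 ± 0.0582, adjusted p = 7.34e-09). POLE, the catalytic subunit of the leading-strand polymerase, fell from 386, 316 and 352 CPM to 200.4, 197 and 195 CPM (log2 -0.83 ± 0.06400, adjusted p = 4.98e-07). With chloroquine alone LIG1 stood at -0.0053 and did not pass and POLE rose (log2 0.34), and the interaction passed for both (adjusted p = 9.33e-08 and 4.26e-07). CDK6 (log2 0.63 ± 0.0674) and CCND2 (log2 0.42 ± 0.0702), a kinase and a cyclin of early G1, rose.

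Mitotic genes were split, with 7 rises and 13 falls among 40 tested. The counts were 10 and 9 without replicate 2 of both groups, and 3 and 17 after GC correction. INCENP, a subunit of the chromosomal passenger complex, fell from 220.0, 188 and 193 CPM to 116, 114 and 109.8 CPM (log2 -0.83 ± 0.0592), and MAD2L1, a spindle checkpoint protein, rose (log2 0.51 ± 0.0576, 0.33 after GC correction), as did CKS2 (log2 0.42 ± 0.111, 0.28 after GC correction). In DNA damage signalling and repair 9 of 50 tested genes rose and 15 fell (6 and 19 after GC correction). FANCA of the Fanconi anemia core complex fell from 92.00, 73.98 and 77.9 CPM to 44.4, 42.5 and 44.8 CPM (log2 -0.89 ± 0.0707), and RAD54L of homologous recombination fell (log2 -0.62 ± 0.0579). ERCC4, the XPF nuclease, rose (log2 0.60 ± 0.0634), and so did PRKDC, the kinase of end joining (log2 0.45 ± 0.0617). Replication-dependent histone genes had 1 rise and 5 falls among 29 tested, with near-identical copies that cannot be told apart with certainty.

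Among 34 tested genes of pyrimidine, folate and 5-FU metabolism 7 rose, 13 fell and 14 did not pass, and after GC correction 9 rose and 8 fell. TYMS, the thymidylate synthase that 5-FU inhibits, was at 131, 117 and 119 CPM with 5-FU and 114, 115 and 119 CPM in the combination and did not pass (log2 -0.0799 ± 0.0543, adjusted p = 0.273). UPP1, a uridine phosphorylase that can convert 5-FU into its riboside, rose from 10.3, 8.46 and 9.97 CPM to 17.1, 18.7 and 21.9 CPM (log2 1.01 ± 0.108, adjusted p = 8.42e-06). MTHFD1L of mitochondrial folate metabolism rose (log2 0.35 ± 0.0649), and UCKL1, related to the uridine-cytidine kinases, fell (log2 -0.87 ± 0.113).

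The integrated stress response list, whose genes are controlled by the factor ATF4 when translation is restrained, had 14 rises, 3 falls and 18 members not passing among 35 tested (median log2 0.18). With library size in place of TMM the counts were 11 and 8. KLHL24 rose from 29.7, 35.04 and 32.9 CPM to 52.8, 56.9 and 49.4 CPM (log2 0.70 ± 0.0736), and STC2, a secreted glycoprotein, rose from 62.5, 57.4 and 61.4 CPM to 91.4, 93.6 and 89.1 CPM (log2 0.60 ± 0.0543, adjusted p = 2e-06). DDIT3, the factor CHOP, rose from 47.5, 42.2 and 40.4 CPM to 54.4, 53.5 and 60.1 CPM (log2 0.37 ± 0.0812), and ATF4 was called at 0.18 ± 0.0452 (adjusted p = 0.00521, 0.34 after GC correction, and not passing in the 6 libraries alone). VEGFA, the vascular growth factor, fell from 20.7, 16.4 and 21.4 CPM to 13.4, 13.2 and 13.5 CPM (log2 -0.54 ± 0.0898), and CBS of cysteine synthesis fell (log2 -0.34 ± 0.0605, -0.16 after GC correction).

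More of this list responded to chloroquine alone, where 25 of the 35 genes rose and 1 fell. The interaction passed for 19 members as a lower response with 5-FU and for 2 as a higher one. A lower response can be a fall: VEGFA rose with chloroquine alone (log2 0.92) and fell with 5-FU present. CHAC1, which degrades glutathione, rose by 1.70 on the log2 scale with chloroquine alone and did not pass with 5-FU present (-0.38 ± 0.154, adjusted p = 0.0672, -0.10 after GC correction). It passed as a fall with library size in place of TMM (log2 -0.42) and without combination 1 (log2 -0.50). Endoplasmic reticulum chaperones and genes of the unfolded protein response had 10 rises and 4 falls among 25 tested, and 4 and 4 after GC correction. XBP1 (log2 0.47 ± 0.0523, 0.31 after GC correction) and the oxidase gene ERO1A (log2 0.50 ± 0.0684, 0.32 after GC correction) rose, and the ubiquitin ligase gene SYVN1 (log2 -0.48 ± 0.0656) and the chaperone gene HYOU1 (log2 -0.28 ± 0.0725, -0.16 after GC correction) fell.

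**Figure D3:**
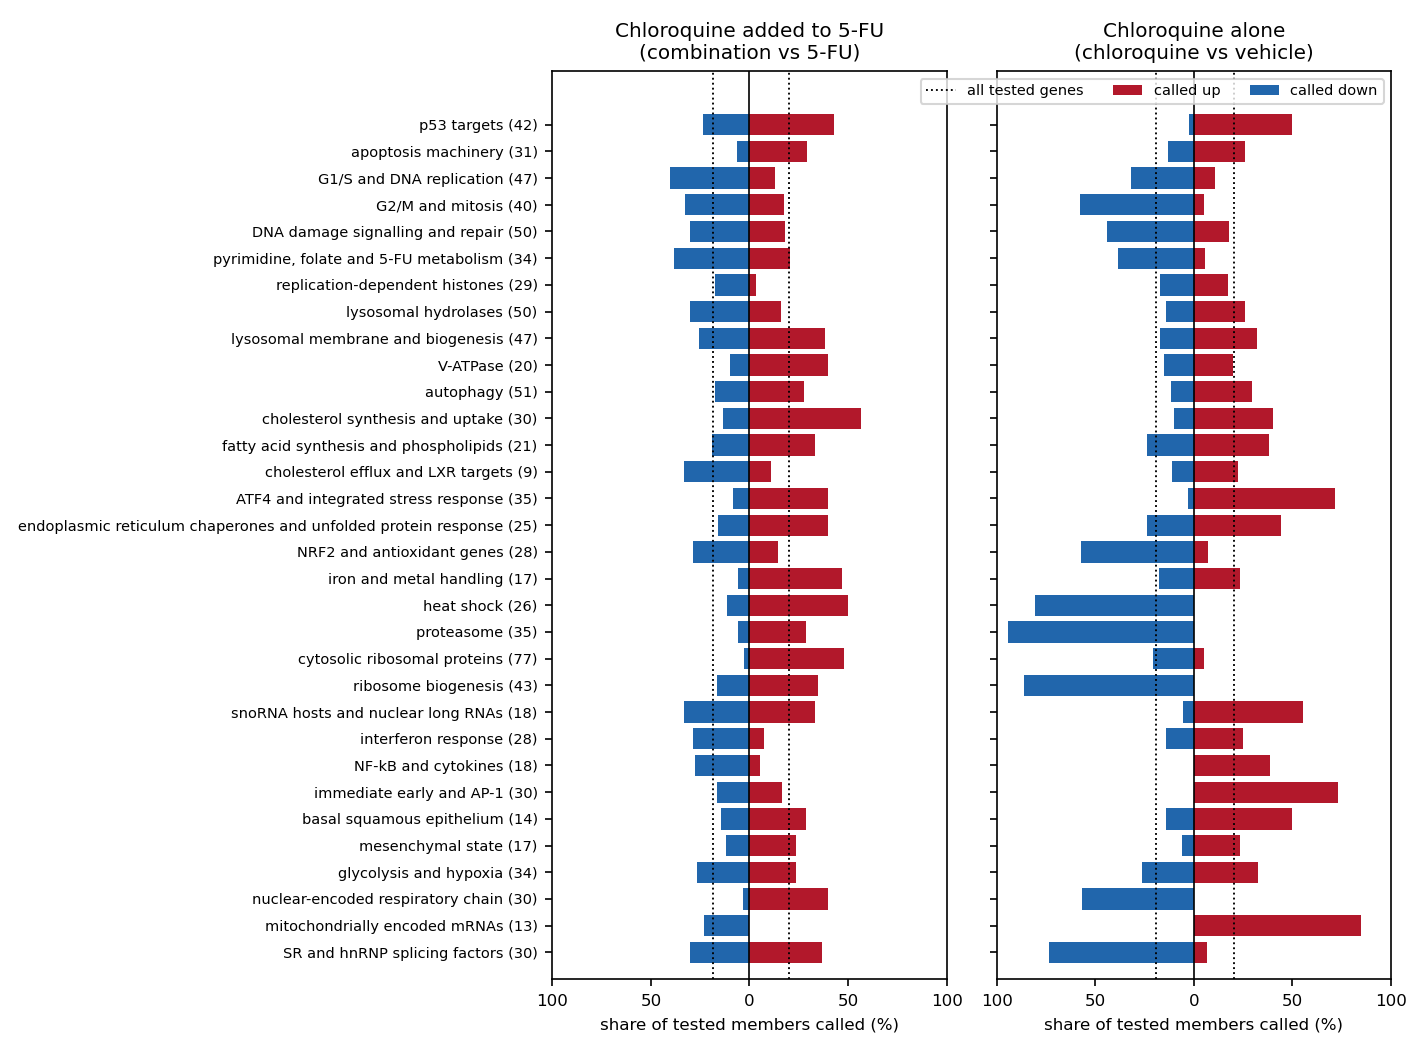
Share of the tested members of each gene list (number in brackets) called up, to the right of 0, and called down, to the left, in percent. The left panel is the combination against 5-FU and the right panel chloroquine against vehicle, and dotted lines give the shares over all tested genes. With 5-FU present 56.7% of the cholesterol list rose, and heat shock, proteasome and ribosome biogenesis genes, which mostly fell with chloroquine alone, mostly rose or did not pass.

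Several lists responded to chloroquine in one way without 5-FU and in another way with it. Over all genes chloroquine alone raised 3952 (20.3%) and lowered 3730 (19.1%) against vehicle, and 2159 and 2237 without the 5 libraries that hold transcripts of other tissues. Genes called in both comparisons were shared almost evenly between the same direction, 1860, and opposite directions, 1760. The 2 comparisons share no library, and across the 19514 genes their log2 fold changes had a Pearson correlation of 0.0065, which is a description since genes are not independent. The interaction, which tests whether the response to chloroquine differed with 5-FU, passed for 7791 genes: 4019 (20.6%) had a higher response with 5-FU and 3772 (19.3%) a lower one, or 2882 and 2662 without the 5 libraries. That split depended on the scaling. With library size in place of TMM the median of the interaction moved by -0.14 and the split was 2379 and 5063, so interaction values here are relative to TMM. With the GC correction the split was 4335 and 4212. Interaction values of single genes and interaction counts of lists are given without that correction. The trend with GC content was seen in the combination against 5-FU and hardly with chloroquine alone, so it enters the interaction.

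Heat shock genes, which encode chaperones of the cytosol and mitochondria, were among them. With 5-FU present 13 of 26 tested rose (50%) and 3 fell (median log2 0.17), or 9 and 4 after GC correction. With chloroquine alone 0 rose and 21 fell (median -0.53). The interaction passed for 20 members, all toward a higher response with 5-FU. HSPE1, the mitochondrial co-chaperone HSP10, was at 93.3, 92.2 and 91.3 CPM with 5-FU and 122, 121 and 145 CPM in the combination (log2 0.49 ± 0.0929) but fell with chloroquine alone (log2 -0.84). DNAJA4 rose from 2.52, 3.36 and 3.27 CPM to 6.15, 5.21 and 5.46 CPM (log2 0.88 ± 0.172). The near-identical HSP70 genes HSPA1A and HSPA1B, whose reads cannot be split with certainty, fell in both settings, by 0.47 and 0.44 on the log2 scale with 5-FU (-0.24 and -0.23 after GC correction) and by 1.96 and 1.97 without it. Their levels with 5-FU, 51.04, 41.8 and 42.7 CPM for HSPA1A, were already far below the vehicle mean of 174 ± 5.51 CPM.

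Proteasome, ribosome biogenesis and respiratory chain genes followed the same division, and cytosolic ribosomal protein genes did so less clearly. Of 35 proteasome genes 10 rose and 2 fell with 5-FU present (6 and 3 with library size in place of TMM, 8 and 5 after GC correction), whereas 0 rose and 33 fell with chloroquine alone. PSMD12, a lid subunit, rose from 168, 214 and 195 CPM to 254, 260.0 and 249 CPM (log2 0.40 ± 0.0677, 0.21 after GC correction). Of 77 cytosolic ribosomal protein genes 37 rose (48.1%) and 2 fell, or 25 and 2 without replicate 2 of both groups. With chloroquine alone 4 rose (5.19%) and 16 fell. Those falls were 20.8% of the list, near the 19.1% of all genes. The list's median log2 with chloroquine alone was -0.09, or -0.16 without the 5 libraries. RPL7 rose from 179, 165 and 190.4 CPM to 231, 228 and 258 CPM (log2 0.42 ± 0.0916, a call lost after GC correction at 0.24). Many of these genes have processed pseudogenes that can share their reads.

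Ribosome biogenesis genes, which process ribosomal RNA in the nucleolus, had 15 rises and 7 falls among 43 tested, against 0 and 37 with chloroquine alone. EBNA1BP2 rose from 107, 109.8 and 106 CPM to 152, 145 and 159 CPM (log2 0.50 ± 0.0515), and GAR1, a protein of the pseudouridylation complexes, rose by 0.50 ± 0.0791. BOP1 (log2 -0.61 ± 0.122, -0.26 after GC correction) and NOP2 (log2 -0.55 ± 0.0999) fell. Among nuclear-encoded respiratory chain genes 12 of 30 rose and 1 fell, against 0 and 17. SDHC of complex II rose from 81.8, 90.3 and 95.3 CPM to 122, 119.8 and 122 CPM (log2 0.45 ± 0.0672), and COX6C of complex IV rose (log2 0.42 ± 0.0875, 0.28 after GC correction).

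Transcripts of the mitochondrial genome went the other way. Of 13 mRNAs 0 rose and 3 fell with 5-FU present (1 and 1 without replicate 2 of both groups, 0 and 5 after GC correction), whereas 11 rose and 0 fell with chloroquine alone, and the interaction passed for 10, all lower with 5-FU. Without the 5 libraries 2 rose and 3 fell with 5-FU present, 6 rose and 0 fell with chloroquine alone, and the interaction passed for 4. MT-CO1, the core subunit of complex IV, was at 5284, 6149 and 5920 CPM with 5-FU and at 4683, 4431 and 4385 CPM in the combination (log2 -0.36 ± 0.0714, adjusted p = 0.00113). Its mean was 2834 ± 168 CPM with vehicle and 3007 ± 309 CPM with chloroquine alone.

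**Figure D4:**
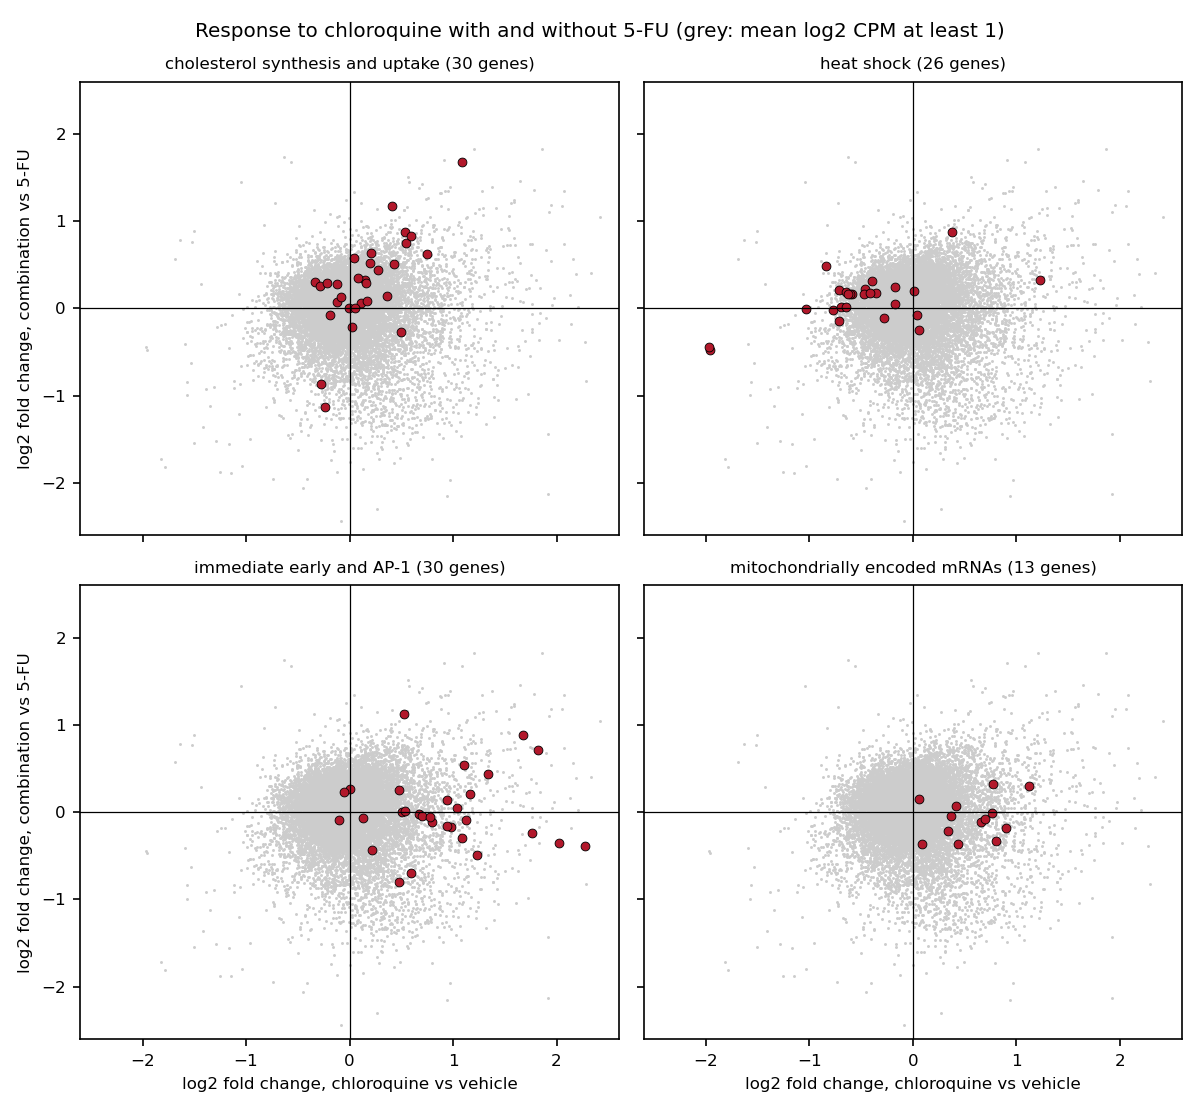
Log2 fold change with chloroquine alone (chloroquine against vehicle, horizontal axes) and with 5-FU present (combination against 5-FU, vertical axes). Grey points are genes whose mean log2 CPM reached 1 (4 of 14287 lie beyond the axes), and red points are the members of 1 list per panel. Cholesterol genes lie mostly at upper right, heat shock genes at left around or above 0, and immediate early genes and mitochondrially encoded mRNAs at right around 0.

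Immediate early and AP-1 genes, which answer growth factors and stress quickly, rose in 22 of 30 cases and fell in 0 with chloroquine alone. With 5-FU present 5 rose and 5 fell, with 2 and 6 under library size in place of TMM, 3 and 4 without replicate 2 of both groups, and 10 and 5 after GC correction. KLF6 rose in both settings, here from 30.2, 31.1 and 30.9 CPM to 64.7, 64.5 and 72.5 CPM (log2 1.13 ± 0.06496, adjusted p = 4.16e-08). DUSP4, a phosphatase of MAP kinases, rose (log2 0.54 ± 0.113). JUNB (log2 -0.69 ± 0.103, -0.35 after GC correction) and CCN1 (log2 -0.79 ± 0.124), a matricellular protein, fell although chloroquine alone had raised them (log2 0.60 and 0.48, interaction adjusted p = 1.44e-05 and 6.51e-05), the rise of JUNB not passing without the 5 libraries (0.40).

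Of 18 NF-kB and cytokine genes 1 rose and 5 fell. NFKB2 fell from 103, 82.5 and 90.9 CPM to 56.6, 59.7 and 59.7 CPM (log2 -0.65 ± 0.0729, -0.36 after GC correction), LIF, a cytokine of the interleukin 6 family, from 8.72, 7.54 and 8.77 CPM to 5.89, 5.57 and 5.597 CPM (log2 -0.55 ± 0.122), and NFKB1 rose (log2 0.32 ± 0.0557). Of 28 interferon response genes 2 rose and 8 fell, and 2 and 4 without replicate 2 of both groups. STAT2, a transcription factor of the interferon pathway, fell from 59.03, 54.3 and 59.8 CPM to 26.3, 28.99 and 27.04 CPM (log2 -1.07 ± 0.0639, adjusted p = 4.49e-08), and B2M, the light chain of MHC class I, rose (log2 0.46 ± 0.0571, 0.30 after GC correction). LIF and STAT2 had risen with chloroquine alone (log2 0.89 and 0.54, the former 0.76 and not passing without the 5 libraries) and with 5-FU alone stood above their vehicle means of 0.762 ± 0.106 and 33.4 ± 1.28 CPM.

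RNA processing genes moved in both directions. Of 30 SR and hnRNP splicing factor genes 11 rose and 9 fell, and 6 and 14 after GC correction, whereas 22 fell with chloroquine alone. CLK2, a kinase that phosphorylates SR proteins, fell from 50.9, 48.7 and 52.3 CPM to 20.5, 20.4 and 19.1 CPM (log2 -1.34 ± 0.0534, adjusted p = 2.28e-09), and its relative CLK3 fell too (log2 -0.36 ± 0.0647). SRSF1 rose from 102, 129 and 119 CPM to 162, 162 and 172 CPM (log2 0.50 ± 0.0917), toward a vehicle mean of 322 ± 19.3 CPM, and SRSF8 rose (log2 0.46 ± 0.0586).

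Of 18 snoRNA host genes and nuclear long RNAs 6 rose and 6 fell. NEAT1, the scaffold of paraspeckles, fell from 98.1, 108 and 110.3 CPM to 48.4, 47.8 and 52.1 CPM (log2 -1.09 ± 0.0635, adjusted p = 4.28e-08) but had risen with chloroquine alone (log2 0.86, interaction adjusted p = 4.56e-09). SNHG12 fell from 68.6, 64.7 and 65.3 CPM to 28.9, 30.4 and 30.02 CPM (log2 -1.15 ± 0.0551), and SNHG7 (log2 0.54 ± 0.1096, 0.90 after GC correction) and SNHG6 (log2 0.49 ± 0.0825) rose. These 4 genes overlap others, and no source used here says whether reads were counted by strand. Of the 165 genes named in the text, 59 overlap another gene on the same strand and 78 one on the opposite strand, and the share of their reads that belongs to the partner is uncertain.

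Lists of cell state changed in both directions. In glycolysis and hypoxia 8 of 34 genes rose (23.5%) and 9 fell (26.5%), against 20.2% and 18.3% of all genes (median log2 0.018). NDRG1, a hypoxia-induced gene, rose from 26.1, 20.9 and 23.4 CPM to 40.2, 39.1 and 41.2 CPM (log2 0.78 ± 0.0678), and ANKRD37 rose (log2 0.99 ± 0.171). The glycolytic enzyme genes PFKL (log2 -1.07 ± 0.119) and ALDOC (log2 -0.84 ± 0.0837) fell. Of 17 genes of the mesenchymal state 4 rose (23.5%) and 2 fell (11.8%). They included a rise of ZEB2 (log2 0.40 ± 0.0857, 0.22 after GC correction) and falls of TGFB1 (log2 -0.66 ± 0.102, -0.34 after GC correction) and FN1 (log2 -0.43 ± 0.0759), the gene of fibronectin. FN1 had risen with chloroquine alone (log2 0.78). Of 14 tested genes of basal squamous epithelium 4 rose (28.6%) and 2 fell (14.3%), LAMB3 and DSC3 among the rises. COL17A1 fell from a mean of 0.678 to 0.180 CPM (log2 -1.89 ± 0.622). ITGA3 fell as well (log2 -0.45, -0.18 and not passing after GC correction). Both of these calls were also lost when some single libraries were left out. DSC3, a desmosomal cadherin, stood at 99.9, 114 and 117 CPM with 5-FU and 178, 179 and 161 CPM in the combination (log2 0.65 ± 0.0606), and it also rose with chloroquine alone (log2 0.43). Only 6 of 29 squamous differentiation genes could be tested, of which 1 rose and 1 fell.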

How the data were processed

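RNA from 13 TE11 samples was sequenced, and the authors deposited a table of counts per gene symbol, whole numbers whose totals differ between libraries, with no normalisation recorded. The submitters' processing notes name DESeq and the build GRCm38, a mouse assembly, although the gene symbols are human. No coordinates are therefore taken from the files. No aligner, counter or strand setting is named there.

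Libraries were grouped by their labels. Genes with low counts were removed (filterByExpr), counts were scaled by TMM, and 1 model over the 4 groups was fitted with edgeR 4.0.16 (quasi-likelihood, R 4.3.3), with Benjamini-Hochberg adjustment over all 19514 genes and a threshold of 0.05. It gave the combination against 5-FU, chloroquine against vehicle, 5-FU against vehicle and the interaction. SE are those of the log2 fold change, means carry the SD, and CPM use TMM-scaled library sizes. Depth was 19507898 to 23679833 counts in the 6 libraries. Alternatives were DESeq2 1.42.0, limma 3.58.1 (voom), other scalings and filters, the 6 libraries alone, a replicate block, each library left out and, added later, leaving out the 5 libraries with over 100 counts of COL1A2 and a GC correction from GENCODE release 29 transcripts matched by symbol (95.9% of tested genes). Same-numbered 5-FU and combination libraries deviated together (correlations 0.341, 0.743 and 0.339). Combination 1 with 5-FU 3 (0.464) and combination 3 with 5-FU 1 (0.511) did so more, so pairing by number is not shown for replicates 1 and 3. The reported fit has no replicate block, and the block is given where it changed a call. The procedure was tested on simulated data.

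The comparison and the gene lists were chosen with earlier results of these data known. Genes were named by rule: the 12 with the largest change each way among called genes whose groups did not overlap and whose mean log2 CPM reached 1, up to 2 called members each way of each list with at least 3 called, the 6 largest interactions each way, and 24 genes whatever their result. RRAGC was added because of its promoter. A few genes that the rule also picks are not reported here.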

Additional observations from a re-analysis of the deposited data

Results flagged for a closer look

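The response to chloroquine differed with and without 5-FU for 7791 genes by the edgeR interaction test, and the genes below had the largest of these differences under the naming rule. Their interaction values are given without GC correction. PLXNB3, a semaphorin receptor, had an interaction of -4.05 on the log2 scale: it rose with chloroquine alone (1.92) and fell when chloroquine was added to 5-FU (-2.13). SLC34A3, a phosphate transporter, had -3.35, with 1.92 alone and -1.43 with 5-FU. EPS8L2, an actin regulator, had -3.11 (2.29 and -0.83, the latter -0.53 after GC correction). ADAMTS10 had -2.93 (0.97 and -1.96, the first 1.05 and not passing without the 5 libraries that hold transcripts of other tissues), and the unconventional myosin gene MYO15B had -2.71 (1.73 and -0.98, the latter -0.63 after GC correction). The mitochondrial tRNA gene MT-TA had -3.16 and was higher with chloroquine in both settings (3.99 alone, 0.82 with 5-FU). The second of these calls was lost without 5-FU 1 (0.63), combination 1 (0.79) or combination 2 (0.81), and without replicate 2 of both groups (0.84).

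In the other direction the 7SL RNA genes RN7SL1 and RN7SL5P had interactions of 2.37 and 1.93, with wide spread between libraries. The HSP70 genes HSPA1B and HSPA1A had 1.53 and 1.48, since both fell less when 5-FU was present. MAP2K6, a kinase upstream of p38, had 1.43: it fell with chloroquine alone (-0.49) and rose with 5-FU present (0.95).

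Among the 4 vehicle libraries, 1 stood apart from the other 3 in the summed CPM of each of 6 marker lists, most often vehicle 4. In vehicle 4 the sums were 133.7 CPM for fibroblast, 25.3 for leukocyte, 15.3 for erythroid, 48.9 for acinar and 40.5 for muscle markers. In vehicle 2 the neural markers summed to 263.6 CPM. Chance flags about 1 in 20 groups, and the vehicle libraries enter the combination against 5-FU only through the shared estimate of spread but bear directly on the values for chloroquine alone and the interaction. Without the 5 libraries that hold transcripts of other tissues the interaction passed for 2882 genes upward and 2662 downward.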

How the results depend on the processing

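The count of 7517 changed genes lay between 6110 (without combination 1) and 7861 (without 5-FU 2) when any 1 library was left out, with 3116 to 3993 rises and 2885 to 3868 falls. The interaction count lay between 6747 (without chloroquine 1) and 8237 (without 5-FU 2). RLE scaling, DESeq2, voom, both filters and the GC correction moved these counts by less than 1.5 times. Library size in place of TMM did so too, but with it 3221 genes rose and 4064 fell, so falls outnumbered rises. Without the 5 libraries with transcripts of other tissues 3764 genes rose and 3500 fell. Asking for a log2 change of at least 1 left 970 genes (199 up, 771 down) and 1806 interaction genes. With the replicate number as a block 4113 genes rose and 3668 fell over all 13 libraries, and 3056 and 3486 in the 6 libraries alone. Not every combination library correlated best with the 5-FU library of its own number: combination 1 did so with 5-FU 3 (0.464) and combination 3 with 5-FU 1 (0.511). The block ended 1 call among the 165 named genes over all 13 libraries, that of IFI44L (log2 -1.35, adjusted p = 0.0543), and changed no other call among them there.

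Of the 157 named genes that were called, 130 kept their call in every alternative other than the fold threshold, and 27 lost it in at least 1. Those are FTL, ATF4, MYC, SQSTM1, MT-CO3, MT-TA, RN7SL1, RN7SL3, RN7SL5P, MDM2, RPL7, PSMD3, COL17A1, CYC1, HLA-C, IFI44L, ITGA3, NUSAP1, PCYT2, PSMA2, PSME2, RPL39, SNAI2, TYMP, CASP2, RPS28 and NEFH, and the cause was not tested. CTSD, not called, changed sign to 0.075 without 5-FU 1 and to 0.23 with GC correction, with or without the block. FTL stood at 0.00023 and 0.00075 and CYC1 at 0.078 in both GC corrections. BAX lay at -0.00071 (RLE), -0.041 (library size), -0.00082 (DESeq2), -0.034 (10 CPM), -0.016 and -0.012 (6 libraries, without and with block), -0.095, -0.010 and -0.087 (without 5-FU 2, 5-FU 3 and combination 3) and -0.034 (without replicate 2, and without the 5 libraries with transcripts of other tissues). FAS lay at 0.0014 (voom), 0.010 (no filter), 0.00095 (block), 0.096, 0.0023, 0.022 and 0.012 (without 5-FU 2, 5-FU 3, combination 1 and combination 3) and 0.051 and 0.050 (without replicate 2, and without the 5 libraries). With 1 library left out, CTSD ranged from -0.22 to 0.075, BAX from -0.095 to 0.11 and FAS from -0.12 to 0.096. Genes under 10 counts in a library are limited by depth.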

Other observations

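The shares of calls varied among classes of genes other than protein-coding ones, against 20.2% up and 18.3% down over all tested genes. Of 2054 tested processed pseudogenes 227 rose (11.05%) and 46 fell (2.24%), both shares below those of all genes. Of 1014 antisense genes 90 rose (8.88%) and 204 fell (20.1%), the falls near the share of all genes. Transcribed unprocessed pseudogenes had 11 rises and 85 falls among 259, and long intergenic RNAs had 98 and 111 among 754. Pseudogenes share sequence with their parents and antisense genes share position with theirs, so part of these counts may belong to the partner, which was not tested. RNA5-8SN3, a 5.8S ribosomal RNA gene, fell by 1.88, and MIR3648-1, a microRNA gene annotated in the ribosomal DNA repeat, also fell by 1.88 on the log2 scale (-1.25 after GC correction). Both are copies in a repeat, and their reads cannot be placed with certainty.

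Of the 12 neural markers 11 were tested, of which 2 rose and 2 fell (18.2% each, against 20.2% and 18.3% of all genes). Neurofilament genes went both ways: NEFL (0.81 ± 0.0493) and NEFM (0.28 ± 0.0618) rose, and NEFH fell (-1.01 ± 0.309), a call lost without 5-FU 1 (-0.83), without combination 3 (-0.79) and without replicate 2 of both groups (-1.06). GAD1, an enzyme of GABA synthesis, fell (-0.57 ± 0.0929). NEFL also rose with chloroquine alone (log2 0.18; 0.22 and not passing without the 5 libraries that hold transcripts of other tissues), while NEFM fell (-0.54). The summed level of the neural list lay between 176 and 178 CPM with 5-FU and between 231 and 242 CPM in the combination. NEFL alone went from a mean of 74.1 to 129.8 CPM, and over the 11 tested genes of the list the median log2 was 0.064. Basal squamous markers summed to 315 to 330 CPM with 5-FU and 399 to 407.5 CPM in the combination, although KRT5 was at 0 counts. DSC3 alone went from a mean of 110.1 to 172.8 CPM, and over the 14 tested genes of the list the median log2 was -0.015, with 4 rises and 2 falls.

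Markers of other cell types were low but not absent. Fibroblast markers summed to 42.8 CPM in 5-FU 2 and 31.6 CPM in combination 2 and to between 13.99 and 30.7 CPM in the other 4 libraries. Leukocyte markers summed to 24.9 CPM in 5-FU 2 and to between 9.26 and 11.1 CPM in the other 5. Other large rises with chloroquine in both settings were METTL7A (1.32 ± 0.125), KCNAB1 (1.34 ± 0.1502), a potassium channel subunit, and CA14 (1.46 ± 0.242), a carbonic anhydrase.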
